A study of Mus musculus with 3 samples.

Results

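The Lum+ Cxcl1+ barcodes of lymph node stroma were described here, a set of 82 of the 2243 barcodes kept in 3 droplet libraries and of 5486 deposited. They were chosen by transcripts alone: at least 1 unique molecular identifier (UMI, 1 per captured RNA molecule) of Lum and of Cxcl1, and 0 UMIs of Cr2, Madcam1, Tnfsf11, Fmod and Inmt. The sorted cells were Podoplanin+ CD31- CD45- CXCL13-TdTomato+, from C57BL/6 mice in which the Cxcl13 promoter drives Cre and the red reporter, so every group carries the transgene and no library lacks an immune complex. 2 libraries came from mice injected with 2 antigen-immunocomplexes (2-IC), 7 days and 24 h before analysis, and 1 library from mice injected once, 24 h before (1-IC). The study's description gives separate experiments with lymph nodes of several mice pooled in each and does not name the library of each, so p-values measure the spread between libraries and not between mice. The age of the mice is not given in the sources used here. The chosen set held 65 barcodes from 2-IC replicate 1, 10 from 2-IC replicate 2 and 7 from 1-IC.

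Reticular cells build the scaffold of the lymph node and make the chemokines that place lymphocytes in it. Lum encodes lumican, a small proteoglycan that binds collagen fibrils, and Cxcl1 encodes a chemokine that draws neutrophils through CXCR2 and is switched on within hours by IL-1, TNF or IL-17. Inmt encodes a methyltransferase that marks reticular cells of the medulla. Klf4 and Atf3 are transcription factors of early responses, which enzymatic digestion of tissue also induces, and Ly6a encodes SCA-1, a surface protein of adventitial fibroblasts. The sequences before the start of 3 NF-kB responsive genes are shown, because Cxcl1 chose the set and Cxcl2 and Nfkbia are its measured relatives in this response. They are from RefSeq on GRCm38.p6 and are printed 5′ to 3′ along the gene, with matches to the NF-kB consensus in capitals.
Cxcl1, chr5:90891124-90891234, plus strand: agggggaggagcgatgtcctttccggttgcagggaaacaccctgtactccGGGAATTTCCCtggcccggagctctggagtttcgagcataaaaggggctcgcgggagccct
Cxcl2, chr5:90903752-90903862, plus strand: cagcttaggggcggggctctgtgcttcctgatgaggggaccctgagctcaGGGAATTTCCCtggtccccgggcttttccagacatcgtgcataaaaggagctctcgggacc
Nfkbia, chr12:55492648-55492726, minus strand: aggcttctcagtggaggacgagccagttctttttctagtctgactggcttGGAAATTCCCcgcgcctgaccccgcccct
The consensus of 10 letters was searched on both strands of the 250 bases before each start, and overlapping matches were merged. The match began 71 bases before the start of Cxcl1, 97 before that of Cxcl2 and 29 before that of Nfkbia. Such a match was in 7.25% of 32851 promoters, in 5 of 13 promoters of the inflammatory chemokine and cytokine list and in 10 of 16 of the NF-kB list. No match was found for Klf4, Atf3 or Inmt in this window, which says nothing about the factors that bind there. Lum, Ly6a and Stmn2 are named only.

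The deposited libraries held 20607903, 12788101 and 3766526 UMIs in all over 3790, 1029 and 667 barcodes. Of the kept barcodes, 864 held Lum, 1346 held Cxcl1 and 607 held both. A further 240 barcodes met every other condition and were left out by Inmt alone, 54 of them by a single Inmt UMI. Tnfsf11 alone removed 36, Fmod alone 28, Cr2 alone 5 and Madcam1 alone 3. Members made up 4.26% of kept barcodes in 2-IC replicate 1 (exact Clopper-Pearson 95% interval 3.30 to 5.40%), 2.56% of 2-IC replicate 2 (1.23 to 4.65%) and 2.15% of 1-IC (0.868 to 4.37%). The intervals cover counting error only, and at full depth those of the 3 libraries overlapped. When each barcode of at least 2000 UMIs was thinned to 2000 and the rule applied again, the shares were 5.20% (4.06 to 6.55%), 4.91% (2.89 to 7.75%) and 1.48% (0.404 to 3.74%), and the intervals of 2-IC replicate 1 and 1-IC no longer overlapped. The rule then chose 89 barcodes, of which 30 were members at full depth and 47 held Inmt at full depth. Membership thus moved with depth, and a barcode without an Inmt UMI is not shown to lack Inmt RNA.

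**Figure D1:**
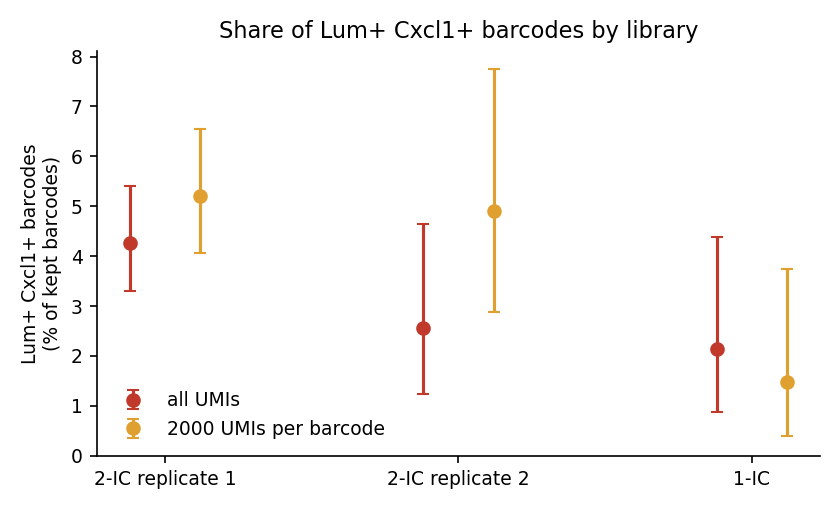
Lum+ Cxcl1+ barcodes as a percent of kept barcodes (y axis) in each library (x axis), from all UMIs and after thinning to 2000 UMIs per barcode; bars are exact 95% intervals. The full-depth shares are 4.26%, 2.56% and 2.15%, and the thinned share of 2-IC replicate 2 is 4.91%.

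Members differed widely in the genes that chose them. The median member held 4250 UMIs in 2-IC replicate 1, 17351.5 in replicate 2 and 5988 in the library of 1-IC mice. Inmt+ barcodes of the same libraries held 5274.5, 15653 and 6745 UMIs, and all other kept barcodes 3973, 9810 and 4822. Cxcl1 ranged from 1 to 258 UMIs per member with a median of 4.5, and Lum from 1 to 25 with a median of 3. A single Cxcl1 UMI placed 23 members in the set, a single Lum UMI placed 33, and 13 members held 1 UMI of each. At the other end, 27 members held 10 or more Cxcl1 UMIs. The 13 members just inside both limits had 859 CPM of Klf4 and 132 CPM of Stc1 (CPM, the UMI count scaled to a fixed total for the summed barcodes), and the 39 members with 2 or more UMIs of both had 963 and 40.8 CPM. Just outside, the 54 barcodes with 1 Inmt UMI had 844 CPM of Klf4 and 188 CPM of Stc1. All 240 barcodes left out by Inmt alone, which include these 54, had 1253 CPM of Klf4 and 352 CPM of Stc1. Their Cxcl1 was at 2220 CPM, beside 2293 CPM in the 39 members with 2 or more UMIs of both genes. High Klf4 and Cxcl1 were thus not particular to members.

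**Figure D2:**
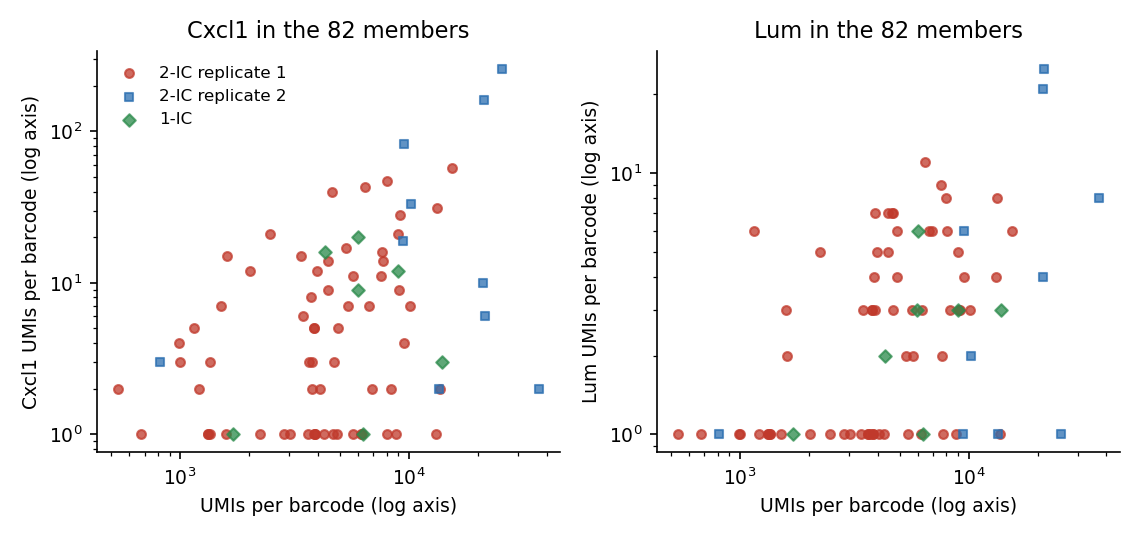
Cxcl1 UMIs (left) and Lum UMIs (right) against all UMIs of each of the 82 members, on log axes; each point is 1 barcode and its shape gives the library. Cxcl1 runs from 1 to 258 UMIs, and the deepest member, of 37031 UMIs in 2-IC replicate 2, holds 2.

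The label of an inflammatory cell type was checked against the genes given for it. Cxcl1, which chose the set and is given without a test, was at 1700.0, 3391 and 1313 CPM in members, given first for the 2-IC replicates 1 and 2 and then for 1-IC, the order of every trio of values below. Inmt+ barcodes held 1404, 1023 and 723 CPM and all others 799.7, 691 and 505 CPM, and 67.8% of Inmt+ barcodes and 45.7% of the others had at least 1 Cxcl1 UMI. Klf4 was at 1138, 483 and 1313 CPM in members, 860.0, 670.1 and 646 CPM in Inmt+ barcodes and 477, 506 and 223 CPM in the others. Against Inmt+ barcodes its log2 fold change was 0.24 (SE 0.23, adjusted p = 0.805), and against the others its log2 fold change was 1.12 (SE 0.24, adjusted p = 0.00374). Atf3 was at 894, 524 and 1249.5 CPM in members and did not pass the test in either comparison with all members. It had log2 fold change -0.09, SE 0.18, adjusted p = 0.935 against Inmt+ and log2 fold change 0.59, SE 0.18, adjusted p = 0.0799 against the others. Against the others Atf3 passed the test without barcodes found in more than 1 library, at 0.69 (adjusted p = 0.0106). It did not without the 2 deepest members of each library, at 0.70 (adjusted p = 0.0679). Ly6a was at 220.4, 53.0 and 1186 CPM in members and 130.4, 63.3 and 92.4 CPM in the others (log2 fold change 1.49, SE 0.32, adjusted p = 0.00411). In the 1-IC library 50 of its 56 UMIs came from 1 member. Without the 2 deepest members of each library the log2 fold change against the others was 0.57 (adjusted p = 0.326). Against Inmt+ barcodes the Ly6a log2 fold change was -0.43 (adjusted p = 0.661) without these members. It was 0.49 (adjusted p = 0.642) without barcodes found in more than 1 library. Of Klf4, Ly6a and Atf3, 27 members held all 3, 34 held 2, 18 held 1 and 3 held none. The set is therefore named below by the rule, as Klf4, Ly6a and Atf3 were not called against Inmt+ barcodes.

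Counts of members, Inmt+ barcodes and all other kept barcodes were summed in each library, and the 9 sums were compared with edgeR with the library as a block. Both comparisons below share the members' sums. Barcodes found in more than 1 library numbered 78 in all and 16 among those kept, 2 of them members, and results that rest on them are also given without them. Fewer cells with a transcript and less RNA per cell cannot be told apart in a sum. The genes of the rule were left out of the tests.

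Against the 1253 Inmt+ barcodes, members were lower in Stc1, Hamp2, Cyp2f2, Efemp1 and Mt1, and higher in Stmn2, Ctsc, Ifrd1 and Rgs5. Of these 9 genes, Stmn2 and Ifrd1 were also higher and Hamp2 also lower than in all other kept barcodes. The other 6 did not pass the test there with all members. Cyp2f2 was higher than in the others without the 2 deepest members of each library, at 1.59 (adjusted p = 0.00489). Rgs5 was higher and Stc1 lower than in the others without barcodes of more than 1 library, at 0.64 (adjusted p = 0.0198) and -0.98 (adjusted p = 0.0439). Of 9194 genes tested against Inmt+ barcodes, 34 (0.37%) were higher and 33 (0.359%) lower in members at an adjusted p under 0.05. Of these 67, 56 had 1 direction in all 3 libraries. Without the library as a block 2 genes were called. Inmt was required at 0 UMIs in members and at 1 or more in the other group. The choice of barcodes and a difference in genes that accompany Inmt therefore cannot be told apart. Inmt+ barcodes could also hold Cr2, Madcam1, Tnfsf11 or Fmod, which members could not. That choice and a fall in genes that accompany Cr2, Madcam1, Tnfsf11 or Fmod cannot be told apart either.

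Stc1, encoding the secreted glycoprotein stanniocalcin-1 (chromosome 14, 69029238 to 69041804 of GRCm38, a protein-coding gene), was at 72.5, 47.1 and 63.5 CPM in members and 372, 417 and 305 CPM in Inmt+ barcodes. The groups did not overlap, and its log2 fold change was -2.68 (SE 0.26, adjusted p = 7.92e-08). Hamp2, a relative of the iron hormone hepcidin, was at 15.1, 5.89 and 0 CPM against 153, 59.2 and 189 CPM (log2 fold change -3.62, SE 0.43, adjusted p = 1.98e-06). Cyp2f2, a cytochrome P450, was at 30.2, 100.1 and 21.2 CPM against 169, 195 and 94.0 CPM (log2 fold change -1.72, SE 0.35, adjusted p = 0.0071), and 12 of its 17 UMIs in 2-IC replicate 2 came from 1 member. Mt1, a metallothionein that binds zinc and copper, was at 127, 371 and 42.4 CPM against 528, 704 and 268 CPM (log2 fold change -1.5, SE 0.24, adjusted p = 0.000267). It was lower in members of every library, but 2-IC replicate 2 members lay above the Inmt+ barcodes of the 1-IC library. The cytokine Il6 had 1 UMI in all members, in 2-IC replicate 1, against 35.4, 27.5 and 7.39 CPM in Inmt+ barcodes (log2 fold change -3.97, SE 0.92, adjusted p = 0.0253). Efemp1, a fibulin of elastic fibres, also had 1 UMI in members against 45.3, 47.4 and 30.6 CPM (log2 fold change -4.59, SE 0.84, adjusted p = 0.00204). For these last 2 genes the fitted fold depends on the prior count and is no bound, and with 0 UMIs in the 7 members of the 1-IC library a difference there was not detectable at this depth.

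The remaining genes named among the falls were Maf, a transcription factor (log2 fold change -2.54, SE 0.55, adjusted p = 0.0122), Mrps6, a mitochondrial ribosomal protein, Rspo3, an amplifier of WNT signals, Ramp1, a partner of the CGRP receptor, and Vit, a matrix protein. Their log2 fold changes were -1.94, -1.85, -1.79 and -1.73, all with adjusted p under 0.05. Without the 2 deepest members of each library Maf and Mrps6 were called again, and Rspo3, Ramp1 and Vit were at -1.48 (adjusted p = 0.0922), -1.51 (adjusted p = 0.107) and -1.46 (adjusted p = 0.115). Chemokines were among the lower genes as well. Cxcl13, the chemokine of B cell follicles whose promoter drives the Cre used in the sort, was at 4028, 1325 and 5019 CPM in members and 5336, 4037 and 6787 CPM in Inmt+ barcodes (log2 fold change -0.89, SE 0.20, adjusted p = 0.017). Cxcl10, a ligand of CXCR3, was at 133, 64.8 and 212 against 286, 237 and 302 CPM (log2 fold change -1.17, SE 0.25, adjusted p = 0.00941). Enpp2, the enzyme that makes lysophosphatidic acid, was at 1857, 1795 and 1377 against 3096, 3161 and 2587 CPM (log2 fold change -0.87, SE 0.17, adjusted p = 0.00612), lower in members of each library without overlap. Without the deepest members Cxcl10 was called again, while Cxcl13 was at -0.72 (adjusted p = 0.296) and Enpp2 at -0.68 (adjusted p = 0.285).

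Stmn2, encoding the microtubule regulator stathmin-2 (chromosome 3, 8509360 to 8561606), was at 245, 124 and 487 CPM in members and 25.2, 42.8 and 5.28 CPM in Inmt+ barcodes, without overlap (log2 fold change 2.93, SE 0.37, adjusted p = 5.21e-06). Only 12 of the 82 members held a Stmn2 UMI, and in the 1-IC library all 23 UMIs were in 1 member. Without the 2 deepest members of each library the log2 fold change was 2.71 (adjusted p = 4.82e-22). This is a value of the 2-IC libraries, since the 5 members then left in the 1-IC library held 0 Stmn2 UMIs. Barcodes with Cxcl1 and no Lum held 140, 22.6 and 0 CPM of Stmn2, and members did not pass the test against them (log2 fold change 1.94, SE 0.54, adjusted p = 0.48). The 13 members with 1 UMI of both Lum and Cxcl1 had 0 CPM of Stmn2, and the 39 with 2 or more of both had 265 CPM. Ctsc, the protease cathepsin C, was at 196, 701 and 127 against 109, 229 and 64.4 CPM (log2 fold change 1.25, SE 0.19, adjusted p = 0.000185), with members of each library above its own Inmt+ barcodes, and Ifrd1, a transcriptional co-regulator, at 368, 1071 and 318 against 274, 330.2 and 133 CPM (log2 fold change 1.09, SE 0.20, adjusted p = 0.00199). Ccl21a, a CCR7 ligand that guides T cells and dendritic cells, was at 5689, 5687 and 27405 CPM against 3586, 3634 and 4403 CPM (log2 fold change 1.30, SE 0.24, adjusted p = 0.00275). In the 1-IC library 977 of its 1294 UMIs came from 1 member, and the members' level there was 9516 CPM without it. In 2-IC replicate 2, 513 of its 966 UMIs came from 1 member, and without it the level was 3048 CPM, below the Inmt+ barcodes of that library. All other kept barcodes held 6089, 6613 and 6978 CPM of Ccl21a, above members in both 2-IC libraries (log2 fold change 0.54, SE 0.24, adjusted p = 0.332), and barcodes with Cxcl1 and no Lum held 7972, 9308 and 24599 CPM. Ccl21a has near-identical copies that may share reads, so its level is uncertain. Rgs5, a regulator of G protein signals known from pericytes, was at 833, 1336 and 529 against 502, 610.4 and 372 CPM (log2 fold change 0.80, SE 0.17, adjusted p = 0.0137). Of 6 tested genes of the pericyte and smooth muscle list Rgs5 alone was called, and the list's median log2 fold change was -0.38. Acta2, a smooth muscle actin, did not pass the test (log2 fold change -0.47, SE 0.25, adjusted p = 0.586), nor did Tagln, the actin-binding protein transgelin (log2 fold change -0.58, SE 0.32, adjusted p = 0.594), which was lower without the 2 deepest members of each library, at -1.57 (adjusted p = 0.00198).

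**Figure D3:**
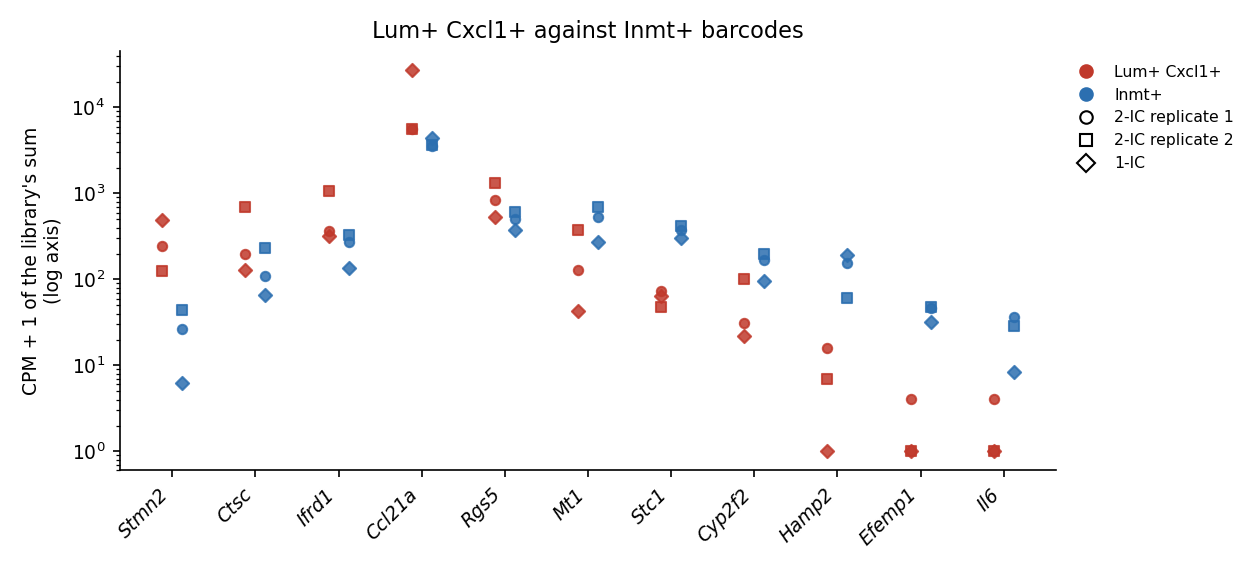
CPM plus 1 on a log axis of 11 genes in the sums of Lum+ Cxcl1+ barcodes (red) and Inmt+ barcodes (blue), 1 point per library. Stc1 and Hamp2 are lower in members of each library, and Stmn2 is higher in each, in 1-IC through 1 member. Efemp1 and Il6 have 0 UMIs in members of 1-IC and of 2-IC replicate 2, and in 1-IC this allows up to 63.5 CPM.

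Of the genes with the largest rises, 5 encode enzymes of sterol or fatty acid synthesis, which were not a list of their own and were not tested as a group. Among the sterol enzymes, Fdps was at 42.3, 218 and 148 CPM against 20.3, 17.9 and 25.3 CPM (log2 fold change 2.44, SE 0.35, adjusted p = 6.27e-05), Idi1 at 21.1, 165 and 106 against 13.7, 17.6 and 14.8 CPM (log2 fold change 2.30, SE 0.39, adjusted p = 0.000921), and Cyp51 at 39.3, 224 and 42.4 against 15.2, 35.8 and 9.50 CPM (log2 fold change 2.18, SE 0.31, adjusted p = 6.27e-05). The fatty acid enzymes Scd2 and Elovl6 had log2 fold changes of 1.36 and 1.80. In 2-IC replicate 2, 35 of 37 Fdps UMIs, 27 of 28 Idi1 UMIs and 31 of 38 Cyp51 UMIs were in 1 member of 25440 UMIs, with 25 of 49 Scd2 UMIs and 19 of 33 Elovl6 UMIs. It also held 258 of the 576 Cxcl1 UMIs and 140 of the 188 UMIs of the chemokine Ccl7 in that library. In the 1-IC library 6 of 7 Fdps and all 5 Idi1 UMIs were in 1 member. Without the 2 deepest members of each library no enzyme of these 5 passed the test, with log2 fold changes of 0.84 (adjusted p = 0.635) for Fdps, 0.27 (adjusted p = 0.955) for Idi1, 0.78 (adjusted p = 0.684) for Cyp51, 0.54 (adjusted p = 0.641) for Scd2 and 1.15 (adjusted p = 0.33) for Elovl6.

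Several genes of the extracellular matrix had most of their UMIs in another member. Timp1, an inhibitor of matrix metalloproteinases, was at 9.06, 553 and 0 CPM in members and 15.2, 53.4 and 22.2 CPM in Inmt+ barcodes (log2 fold change 2.42, SE 0.38, adjusted p = 0.00022). In 2-IC replicate 2, 89 of its 94 UMIs, 111 of 124 UMIs of the collagen Col5a3, 64 of 79 UMIs of Fbln2 and 581 of 918 UMIs of Col1a1 were in 1 member. This was the deepest member, with 37031 UMIs, and its barcode was also a kept barcode of 533 UMIs in 2-IC replicate 1. Without barcodes of more than 1 library, Timp1 had a log2 fold change of -0.72 (adjusted p = 0.785), and Col5a3, Fbln2, Col5a2 and the procollagen protease Bmp1 did not pass the test, at 1.46 (adjusted p = 0.0971), 0.41 (adjusted p = 0.741), 0.48 (adjusted p = 0.327) and 0.86 (adjusted p = 0.473). Col6a3 and the fibrillin Fbn1 then kept their calls, with log2 fold changes of 0.79 (adjusted p = 0.0322) and 0.86 (adjusted p = 0.0494), and lost them without the 2 deepest members of each library. The proteoglycan Vcan was at 36.2, 259 and 21.2 against 23.8, 61.5 and 20.1 CPM (log2 fold change 1.5, SE 0.29, adjusted p = 0.00536), with 11 of its 44 UMIs of 2-IC replicate 2 in the deepest member. It was called without the barcodes of more than 1 library, at 1.49 (adjusted p = 0.00666), and not without the 2 deepest members of each library, at 0.99 (adjusted p = 0.265). The membrane protein Plp2 (log2 fold change 1.92, SE 0.42, adjusted p = 0.0161) was likewise called without shared barcodes, at 1.67 (adjusted p = 0.038), and not without the deepest members, at 0.09 (adjusted p = 0.981). Ifi205, an interferon-inducible gene of a family of close copies (log2 fold change 1.83, SE 0.41, adjusted p = 0.0178), lost its call in both, at 1.65 (adjusted p = 0.075) and 1.01 (adjusted p = 0.574). Efcc1, a calcium-binding protein, was also among the rises (log2 fold change 3.70, SE 0.42, adjusted p = 9.89e-07). All 21 Efcc1 UMIs of 2-IC replicate 2 were in the deepest member.

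**Figure D4:**
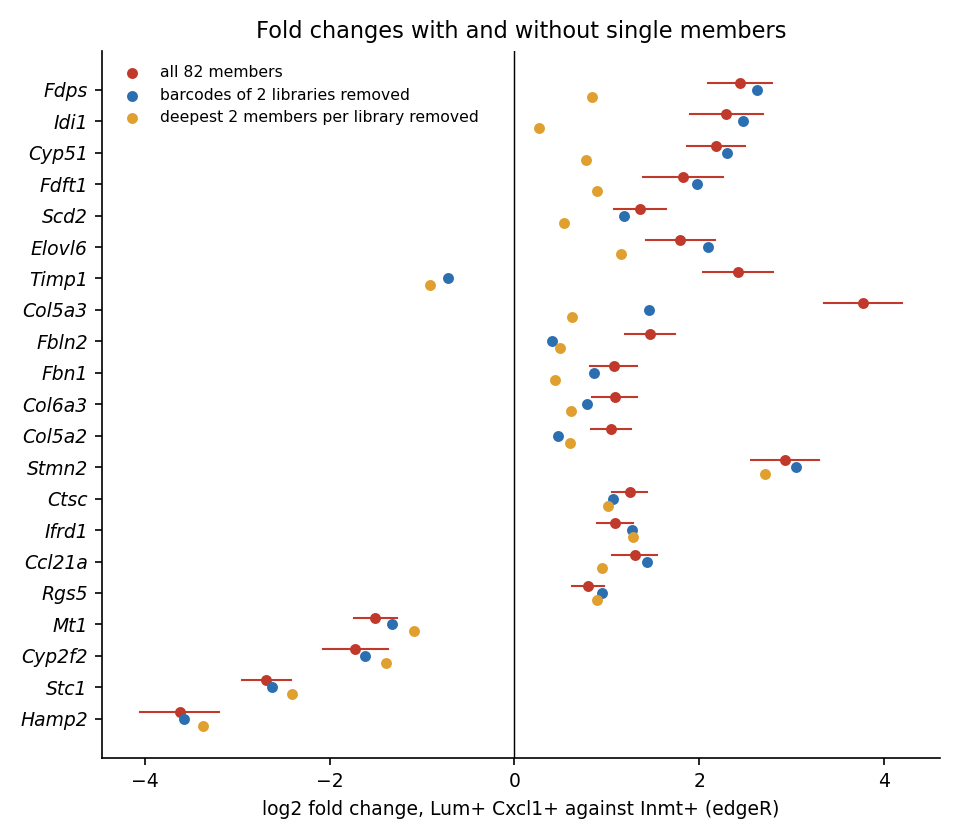
Log2 fold change of Lum+ Cxcl1+ over Inmt+ barcodes from edgeR for 21 genes, with bars of 1 standard error for the fit on all 82 members, and points without barcodes found in 2 libraries and without the 2 deepest members of each library. Without the deepest members Fdps moves from 2.44 to 0.84 and Timp1 from 2.42 to below 0, while Stmn2 moves from 2.93 to 2.71 and Stc1 from -2.68 to -2.40.

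Without the 2 deepest members of each library, 7 of the 34 higher and 13 of the 33 lower genes were called again. Among the 7 were Stmn2, Efcc1, Ifrd1, Ctsc, Ccl21a and Rgs5. Of genes listed by role, few were called against Inmt+ barcodes. None of the 26 tested immediate early genes, 16 NF-kB genes, 10 heat shock genes or 11 receptors upstream of Cxcl1 was called, with a median log2 fold change of 0.04 for immediate early genes and 0.11 for NF-kB genes beside -0.05 over all genes tested. Fos, the most abundant in members of 2-IC replicate 1, was at 7727, 2885 and 8048 CPM against 7733, 5853 and 8284 CPM (log2 fold change -0.41, SE 0.19, adjusted p = 0.466). Nfkbia, the inhibitor of NF-kB, was at 1286, 1966 and 2266 against 1432, 1449 and 1482 CPM (log2 fold change 0.20, SE 0.17, adjusted p = 0.767). Cxcl2 had 0 UMIs in members of the 1-IC library. Its log2 fold change was 0.98 (adjusted p = 0.259) without barcodes of more than 1 library and -0.42 (adjusted p = 0.8) without the 2 deepest members of each library. Of 12 tested inflammatory chemokines and cytokines, Lif was higher (log2 fold change 1.77, SE 0.42, adjusted p = 0.0296) and Il6 lower, with a median of 0.30. Lif was at 1.60 (adjusted p = 0.171) without the 2 deepest members of each library. Ptgs2 was called higher without these members, at 0.89 (adjusted p = 0.0304), and without barcodes of more than 1 library, at 0.94 (adjusted p = 0.0244). Ccl2 and Ccl7 were called higher without barcodes of more than 1 library, at 1.40 (adjusted p = 0.00887) and 1.08 (adjusted p = 0.0203). They were at 0.14 (adjusted p = 0.94) and -0.18 (adjusted p = 0.909) without the deepest members. Of 11 tested collagens 2 were higher and none lower (median 0.55), and of 13 tested matrix glycoproteins 2 were higher and none lower (median 0.64), none of these 4 being called without the deepest members. The matrix glycoprotein Thbs1 was called higher without the deepest members, at 0.94 (adjusted p = 0.0119), and without barcodes of more than 1 library, at 0.80 (adjusted p = 0.0272). Vtn of the same list was at 0.80 (adjusted p = 0.0598) and 0.79 (adjusted p = 0.0225) in these 2 fits. Of 5 tested medullary reticular cell genes 2, Stc1 and Cyp2f2, were lower. No gene of 7 tested adventitial fibroblast genes (median 0.52), 8 complement genes or 8 follicular dendritic cell (FDC) genes was called with all members. The adventitial fibroblast gene Dpt was called higher without barcodes of more than 1 library, at 0.74 (adjusted p = 0.0159). It was not without the deepest members, at 0.65 (adjusted p = 0.208).

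Against the 908 other kept barcodes, members were higher in collagens, adventitial fibroblast genes and some early response genes, and lower in FDC genes. Of 9194 genes, 101 (1.1%) were higher and 143 (1.56%) lower in members, 218 of them in 1 direction in all 3 libraries. Without the library as a block 19 genes were called. The other barcodes lack Inmt by definition but could hold Cr2, Madcam1, Tnfsf11 or Fmod, which members could not. That choice and the lower FDC genes therefore cannot be told apart. In this comparison and in that with Inmt+ barcodes, only members were required to hold both Lum and Cxcl1. The choice and a rise in genes that accompany Lum or Cxcl1 cannot be told apart either.

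Of 7 tested adventitial fibroblast genes, 6 were higher in members and none lower (median log2 fold change 1.49, beside -0.05 over all genes), and 4 of the 6 were called without the 2 deepest members of each library. Ly6a lost its call, as given above, and Cd248 did not pass the test, at 1.55 (adjusted p = 0.146), beside 2.38 with all members. Gsn, encoding the actin-severing protein gelsolin, was at 4505, 2955 and 3049.7 CPM in members and 2375, 1137 and 1111 CPM in the others, without overlap (log2 fold change 1.19, SE 0.17, adjusted p = 2.18e-05). Dpt, the matrix protein dermatopontin, was at 912, 954 and 657 against 338, 364 and 185 CPM, also without overlap (log2 fold change 1.5, SE 0.18, adjusted p = 2.26e-06), and Clec3b, a plasminogen-binding lectin, at 824, 506 and 826 against 469, 216 and 310.3 CPM (log2 fold change 1.07, SE 0.18, adjusted p = 0.000179). Cd34 was at 48.3, 70.6 and 0 against 14.9, 8.49 and 2.92 CPM (log2 fold change 2.22, SE 0.46, adjusted p = 0.00283). Its 0 UMIs in the 7 members of the 1-IC library allow up to 63.5 CPM, so a difference there was not detectable at this depth. Pi16, a defining gene of adventitial fibroblasts, had 0 UMIs in members, and was found in 2 Inmt+ barcodes and 1 of the others.

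Of 11 tested collagens, 10 were higher and none lower (median 1.05), and 7 of the 10 were called without the 2 deepest members of each library. Col5a1, Col6a1 and Col6a2 then lost their calls, at 0.69 (adjusted p = 0.0912), 0.60 (adjusted p = 0.152) and 0.60 (adjusted p = 0.136). Col1a1, a chain of type I collagen, was at 2201, 5404 and 1673 CPM in members and 1402, 1292 and 739 CPM in the others (log2 fold change 1.32, SE 0.22, adjusted p = 0.000189). Without the 2 deepest members of each library its log2 fold change was 0.96 (adjusted p = 0.00322). Fbln1, a fibulin, was at 75.5, 88.3 and 63.5 against 15.2, 12.4 and 8.76 CPM, without overlap (log2 fold change 2.53, SE 0.33, adjusted p = 4.89e-06). Dcn, the proteoglycan decorin, was at 8509, 7235 and 6714 against 4865, 3905 and 2761 CPM (log2 fold change 0.92, SE 0.17, adjusted p = 0.000856). Inmt+ barcodes held 10901, 10785.5 and 10258 CPM of Dcn, above members in each library, and Dcn did not pass the test against them. Other genes named among the rises were the collagen Col23a1, the secreted protease Htra3, the lysyl oxidase Loxl1, the membrane protein Emp1, the transporter Abca8a, and again Vcan, Stmn2, Bmp1 and Efcc1. Their log2 fold changes were 1.90, 1.94, 1.53, 1.85, 1.55, 2.20, 1.94, 1.61 and 1.71. Without the deepest members, Loxl1, Bmp1 and Efcc1 did not pass the test, at 0.65 (adjusted p = 0.582), 0.98 (adjusted p = 0.252) and 0.73 (adjusted p = 0.588), and Emp1 passed it at 1.14 (adjusted p = 0.0219).

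Of 26 tested immediate early genes 5 were higher in members, Klf2, Klf4, Ier2, Nr4a1 and Btg2, and none lower (median 0.52). Klf2, a transcription factor, was at 1425, 477 and 1059 CPM against 686, 302 and 484 CPM (log2 fold change 0.92, SE 0.19, adjusted p = 0.0024), and Fos did not pass the test (log2 fold change 0.37, SE 0.19, adjusted p = 0.442). Of 12 tested inflammatory chemokines and cytokines 3 were higher (median 0.54). Ccl2 and Lif were called higher without barcodes of more than 1 library, at 1.21 (adjusted p = 0.0106) and 1.54 (adjusted p = 0.0304). They were not called without the 2 deepest members of each library, at -0.06 (adjusted p = 0.958) and 1.25 (adjusted p = 0.199). Ccl7, a ligand of CCR2, was at 287, 1107 and 657 against 180.2, 285 and 74.9 CPM (log2 fold change 1.72, SE 0.27, adjusted p = 7.94e-05), and without the 2 deepest members of each library had a log2 fold change of 0.58 (adjusted p = 0.199). Ptgs2, the prostaglandin synthase COX-2, was at 154, 336 and 63.5 against 95.8, 96.6 and 57.4 CPM (log2 fold change 1.15, SE 0.22, adjusted p = 0.00131), and the eotaxin Ccl11 at 435, 583 and 254 against 221, 289.8 and 153 CPM (log2 fold change 0.97, SE 0.19, adjusted p = 0.00136). Of 16 NF-kB genes 1, Tnfaip2, was lower (log2 fold change -1.65, SE 0.28, adjusted p = 0.000235), and none of 11 receptors upstream of Cxcl1 was called.

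Of 8 tested FDC genes 7 were lower in members (median -2.46). Cxcl13, which is not part of the FDC list, was at 4028, 1325 and 5019 CPM in members and 17412, 8734 and 28053 CPM in the others (log2 fold change -2.47, SE 0.20, adjusted p = 8.36e-10). Clu, the chaperone clusterin, was at 4713, 2619.6 and 6862 against 10273, 7739.9 and 14933 CPM (log2 fold change -1.33, SE 0.19, adjusted p = 2.56e-05), and Mfge8, which bridges apoptotic cells to phagocytes, at 3666, 1489 and 2160.2 against 8786, 5758 and 8029 CPM (log2 fold change -1.73, SE 0.18, adjusted p = 3.46e-07). Fcgr2b, the inhibitory Fc receptor, had 0 UMIs in members of all 3 libraries, against 55.7, 62.0 and 88.5 CPM in the others, and was lower by the test (adjusted p = 7.27e-05). Fcer2a, encoding CD23, and Coch each had 1 UMI in all members, against 57.4, 47.6 and 72.0 and 79.6, 60.7 and 73.0 CPM in the others. Of 6 tested pericyte and smooth muscle genes 3 were lower and none higher (median -0.53), Acta2, Tagln and the smooth muscle myosin Myh11. Their log2 fold changes were -0.95, -1.31 and -1.80, and all 3 were called without shared barcodes and without the deepest members. Rgs5 of the same list was called higher without shared barcodes, at 0.64 (adjusted p = 0.0198), and not without the deepest members, at 0.60 (adjusted p = 0.156). The further genes named among the falls were Ch25h, which makes 25-hydroxycholesterol, with 1 UMI in members, the fatty acid binding protein Fabp5 with 4, Strbp with 1, and the transporter Slc1a2 and the synaptotagmin Syt1 with 0.

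**Figure D5:**
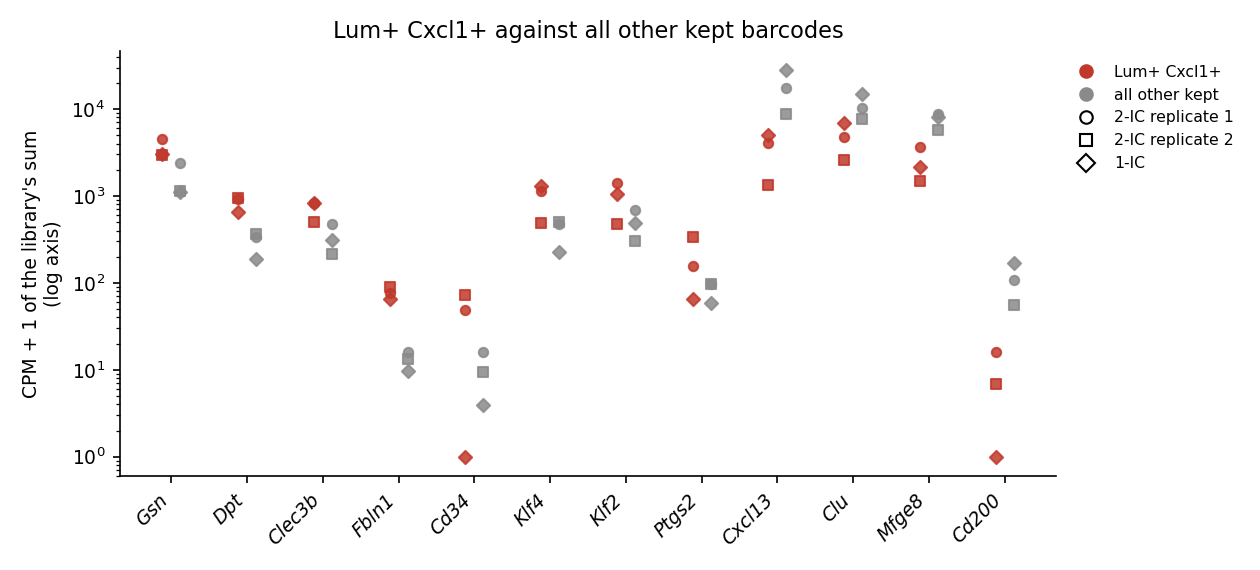
CPM plus 1 on a log axis of 12 genes in the sums of Lum+ Cxcl1+ barcodes (red) and all other kept barcodes (grey), 1 point per library. Gsn, Dpt, Clec3b and Fbln1 are higher in members without overlap of the libraries, and Cxcl13, Mfge8 and Cd200 are lower without overlap.

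The 2 genes of the rule were then set against each other, among barcodes with 0 UMIs of Cr2, Madcam1, Tnfsf11, Fmod and Inmt. These held 41 barcodes with Lum and no Cxcl1 (33, 3 and 5 in the 3 libraries) and 151 with Cxcl1 and no Lum (112, 25 and 14). The median barcode held 2617 UMIs with Lum alone and 3130 with Cxcl1 alone, and the median member 4778, so the groups differed in depth. Of 1904 genes tested, 1 (0.0525%) was higher in members than in barcodes with Lum alone and none was lower, with 57 and 30 genes at an unadjusted p under 0.05 and 3 and 0 calls by DESeq2. The gene was Dnajb1, a heat shock co-chaperone, at 449.9, 118 and 551 CPM in members against 18.6, 0 and 0 CPM (log2 fold change 4.99, SE 0.68, adjusted p = 0.0006). In the 1-IC library 25 of its 26 UMIs in members were in 1 barcode, and the zeros are sums of 3 and 5 barcodes. Dnajb1 was called without barcodes of more than 1 library, at 5.03 (adjusted p = 0.000231), and not with barcodes of contaminant genes kept, at 2.27 (adjusted p = 0.355). Against barcodes with Cxcl1 alone 1 gene (0.0525%) was lower in members, the metallothionein Mt2, and none higher, with 41 and 15 genes at an unadjusted p under 0.05 and no call by DESeq2. Mt2 was at 24.2, 147 and 0 CPM in members and 73.6, 965 and 0 CPM in barcodes with Cxcl1 alone (log2 fold change -2.45, SE 0.43, adjusted p = 0.0325). Mt2 did not pass the test without barcodes of more than 1 library, at -2.27 (adjusted p = 0.0524), without the 2 deepest members of each library, at -1.98 (adjusted p = 0.0706), from sums of at least 5 cells, at -2.45 (adjusted p = 0.206), or at 2 UMIs of both genes, at -2.22 (adjusted p = 0.373), and it was at 0.32 (adjusted p = 0.864) with barcodes of contaminant genes kept. Klf4 and Atf3 did not pass the test in either comparison, with log2 fold changes of 0.71 and 1.54 against Lum alone and 0.36 and -0.15 against Cxcl1 alone. After thinning to 2000 UMIs 346 genes were tested, and none was called in either comparison.

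RNA of other cell types was measured in members with fixed lists. Myeloid genes summed to 90.6, 76.5 and 0 CPM, led by Aif1, against 154, 60.7 and 156 CPM in Inmt+ barcodes and 459, 170.4 and 616 CPM in the others. Neutrophil genes, 3 in all, had 1 UMI in members, of S100a8, and the T cell list summed to 9.06, 5.89 and 0 CPM. Endothelial genes summed to 6.04, 0 and 0 CPM. B cell genes summed to 1184, 206 and 1758 CPM in members, with Cd74 and Igkc the most abundant, against 1270.2, 407 and 746 CPM in Inmt+ barcodes. Igkc and Lyz2 were lower in members than in the others (log2 fold change -1.38, SE 0.34, adjusted p = 0.0157 and log2 fold change -4.08, SE 0.61, adjusted p = 3.84e-05). The nuclear RNA Malat1 was at 47319, 66091 and 99009 CPM in members, against 38349, 61534 and 78377 CPM in Inmt+ barcodes, and no nuclear long noncoding RNA was called. The part of RNA from other cells in the results above was not tested.

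The 1-IC library was set beside the 2-IC libraries for members alone, with no test because 1-IC has 1 library. Among genes of at least 50 CPM in either library, 1272 of 3582 (35.5%) were 2-fold or more apart between 1-IC and 2-IC replicate 1, and 2127 of 4017 (52.9%) between 1-IC and 2-IC replicate 2. The 2-IC libraries differed from each other at 1286 of 3741 genes (34.4%), at this limit about as often as 1-IC and 2-IC replicate 1. With a minimum of 200 CPM the shares moved apart. They were 30.3% for the 2-IC pair, 17.7% for 1-IC against 2-IC replicate 1 and 44.6% for 1-IC against 2-IC replicate 2. The 7 members of the 1-IC library held 47218 UMIs in all, against 331181 and 169871, so that 3 UMIs there are 63.5 CPM. Genes of at least 50 CPM in 1-IC or in both 2-IC libraries were also compared, leaving out unannotated models, pseudogenes, ribosomal and mitochondrial genes. Of these, 393 were 2-fold or more higher in 1-IC than in each 2-IC library, and 374 were 2-fold or more lower. These counts have no share of all genes beside them, and whether they exceed the differences between the 2-IC libraries was not tested. The 10 with the largest fold were all among the higher, which the limits of 3 UMIs favour, since they hold down the fold of genes lower in 1-IC more than that of genes higher in it. Of these, Isg15, a ubiquitin-like protein, was at 39.3, 11.8 and 847 CPM, and 39 of its 40 UMIs in the 1-IC library were in 1 member. Irf7 was at 18.1, 5.89 and 233 CPM, with 7 of 11 UMIs in 1 member. The list of 12 interferon-stimulated genes summed to 1117, 188 and 2372 CPM in members, 989, 989 and 1383 CPM in Inmt+ barcodes and 775, 965 and 1683 CPM in the others. In members of the 1-IC library 88 of the list's 112 UMIs were in 1 member, the one with most Isg15, and the sum was 628 CPM without it, below 2-IC replicate 1. The other genes, Ifit3, Ifi44, Ptrhd1, Nat8, Kiz, Lrrfip2, Fgf18 and Clec1a, rested on 4 to 8 UMIs. Of genes lower in 1-IC, named after their values were seen, the stromelysin Mmp3 was at 242, 406 and 0 CPM, and 62 of its 69 UMIs in 2-IC replicate 2 were in 1 member.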

How the data were processed

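Droplet libraries (10x 3′ chemistry) of sorted lymph node stroma were used as deposited: UMI counts per gene and barcode, which the authors made with Cell Ranger (5.0.0 in the file headers) on GRCm38. No normalization had been applied to the deposited counts. Barcodes with at least 200 genes, at most 10% mitochondrial UMIs and 0 UMIs of 13 contaminant genes were kept. The members and the 25 gene lists were chosen with earlier results of these data known. Scrublet (scanpy 1.11.5) called 8, 18 and 16 kept barcodes as doublets in 2-IC replicate 1, 2-IC replicate 2 and 1-IC, none of them members, and doublets stayed in.

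Counts were summed per group and library, giving 9 sums, and tested in R 4.3.3 with edgeR 4.0.16 (TMM, filterByExpr, quasi-likelihood F test, library as a block, Benjamini-Hochberg adjustment, threshold 0.05). DESeq2 1.42.0 was an alternative. Removing barcodes shared between libraries, small sums or the 2 deepest members of each library was chosen after seeing the data. The scripts were tested on simulated data. Genes named were the markers, the 12 largest rises and 8 largest falls called with 1 sign in 3 libraries and at 50 CPM or more in either group's mean, called or abundant genes of the lists, and the 10 largest folds between libraries, leaving out unannotated models, pseudogenes, ribosomal and mitochondrial genes. Libraries within members were compared at 2-fold and 50 CPM with no test. A count of 0 was given a limit of 3 UMIs. Intervals are exact at 95%. A gene that met the naming rule is counted and not reported here.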

Additional observations from a re-analysis of the deposited data

Results flagged for a closer look

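In a few genes the 1-IC library went the other way from both 2-IC libraries. Col6a3 was higher in members than in Inmt+ barcodes in both 2-IC libraries, and in the 1-IC library the difference was -8.75 CPM. Fbn1 did the same, with a difference of -49.4 CPM from Inmt+ barcodes in the 1-IC library and of -2.62 CPM from the other kept barcodes. These differences between the libraries were not tested, and each is below the 63.5 CPM that 3 UMIs make in the 7 members of the 1-IC library.

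Of 2270 barcodes left out for a UMI of a contaminant gene, 70 (3.08%) met every other condition of the Lum+ Cxcl1+ set. There were 59 from 2-IC replicate 1, 8 from 2-IC replicate 2 and 3 from 1-IC, and they were not used in the comparisons above.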

How the results depend on the processing

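Against Inmt+ barcodes (67 genes called), 41 genes were called by DESeq2, 167 without a filter on low counts, 2 without the library block, 12 after thinning to 2000 UMIs and 120 with barcodes of contaminant genes kept. In the fits and the library pairs, thinned counts were summed over the groups chosen at full depth, for barcodes of at least 2000 UMIs. The rule was applied again to thinned counts only for the shares. Leaving out 1 library at a time gave 44 (without 2-IC replicate 2) to 119 (without 2-IC replicate 1). Against the others (244 called), the counts were 144 by DESeq2, 19 without the block, 77 after thinning, 1929 with barcodes of contaminant genes kept and 200 to 242 with 1 library left out. Against Lum alone (1 called), they were 3 by DESeq2, 6 without the filter, 0 without the block, 0 after thinning, 13 at 5% mitochondrial UMIs, 2 without doublets and 4 to 5 with 1 library left out. Against Cxcl1 alone (1 called), they were 0 by DESeq2, 7 without the filter, 0 without the block, 0 after thinning, 0 at 2 UMIs of both genes, 23 with barcodes of contaminant genes kept, 6 at 5% mitochondrial UMIs and 1 to 5 with 1 library left out. The next 3 settings were chosen after seeing the data. Without barcodes shared between libraries, 2 and 0 genes were called against Lum alone and Cxcl1 alone, and 0 against Cxcl1 alone from sums of at least 5 cells. Without the 2 deepest members of each library 30 were called against Inmt+. The share in 2-IC replicate 1 was 1.83% at 2 UMIs of both genes, and that in 2-IC replicate 2 was 4.91% after thinning. For 1-IC against 2-IC replicate 1, 1-IC against 2-IC replicate 2 and the 2-IC pair, genes apart numbered 136, 404 and 264 at 200 CPM and 2857, 4722 and 3246 after thinning. At 1.5-fold they numbered 2007 for the first pair and 2238 for the 2-IC pair. Timp1 turned lower against Inmt+ at -1.08 without 2-IC replicate 2, -0.72 without shared barcodes and -0.91 without the deepest members, and against the others at -0.67, -1.08 and -1.24, its values with 1 library left out running from -1.08 to 3.06 and from -0.67 to 2.54. Cyp51 was at -0.32 against the others without the deepest members, Emp1 at -0.024 against the others after thinning, and Gclc at -0.25 against Inmt+ at 2 UMIs of both genes. The cause of these moves was not tested. Of 1414 log2 fold changes under other settings for 147 calls of named genes, 927 kept their side of the threshold, 478 lost the call and 9 reversed. No paired analysis was possible because 2-IC and 1-IC share fewer than 2 replicate numbers. Depth limits the 1-IC library most, where 3 UMIs in members are 63.5 CPM.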
